A study of Rattus norvegicus with 64 samples.

Results

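A set of 8 genes that mark neurons of the dentate gyrus or of the cortical layers was followed through the hippocampus and the cortex of rats: Prox1, C1ql2, Rorb, Bcl11b, Lmo4, Tshz2, Cux2 and Pcp4. They were chosen by symbol, with earlier results of these data known. Each of the 8 matched 1 of the 32552 gene rows in the deposited count tables. RNA sequencing gave 64 libraries, 1 from the hippocampus and 1 from the cortex of each of 32 rats. The rats were labelled ApoE4 or ApoE3, after the E4 and E3 isoforms of apolipoprotein E, a lipid carrier. How the alleles were introduced was not given in the sources used here. Treated rats received doxorubicin, an anthracycline chemotherapy drug, at 2 mg per kg per week for 4 weeks from the age of 5 weeks, and their counterparts received phosphate-buffered saline (PBS). Tissue collection followed the final dose by 5 to 6 weeks. The 8 groups were therefore ApoE4 doxorubicin, ApoE4 PBS, ApoE3 doxorubicin and ApoE3 PBS in the hippocampus, and the same 4 in the cortex. Each group held 8 libraries from 4 females and 4 males.

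In mammals the identity of an excitatory neuron is held by transcription factors that are switched on during development and stay on in the adult. In the dentate gyrus, Prox1 keeps granule cells distinct from the pyramidal cells of CA3. In the cortex, Cux2 marks the upper layers, Rorb marks layer 4, and Bcl11b marks deep-layer neurons that project out of the cortex. Several of these genes are also used elsewhere in the forebrain: Bcl11b is known in hippocampal and striatal projection neurons, and Pcp4 in deep cortical layers, CA2, dentate granule cells and the striatum. In bulk tissue, fewer cells of a type and less RNA per cell cannot be told apart.

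Library totals lay between 10.8M and 20.4M reads (median 14.5M). Markers of tissue next to the dissected regions varied between libraries. The summed level of 13 measured striatal projection neuron genes (of 16 listed) had a median of 442 CPM (counts scaled to a common library total) in cortex and exceeded 1.5 times that in 4 cortical libraries: 914 CPM in an ApoE4 doxorubicin male (rat 11), and 836, 748 and 721 CPM in ApoE3 doxorubicin males (rats 47, 49 and 51). In hippocampus the same sum ran from 202 to 318 CPM. The summed level of 11 measured choroid plexus genes (of 12 listed) had a median of 203 CPM in hippocampus and lay between 3020 and 17100 CPM in 6 hippocampal libraries, which came from all 4 genotype and treatment groups. Results that rest on these libraries are given with and without them.

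Promoter sequence was in the reference table for 5 of the 8 genes. The 250 bases before the annotated start (RefSeq, GRCr8) are printed for 4 of them. C1ql2 and Cux2 are shown because their levels separated the regions most widely among those 5, in opposite directions. Lmo4 and Pcp4 are shown because their levels moved in opposite directions from one cortical library to the next. The C1ql2 window was chr13:34023652-34023901 on the plus strand, and the Cux2 window was chr12:40179032-40179281 on the plus strand. The Lmo4 window was chr2:235941276-235941525 on the minus strand, and the Pcp4 window was chr11:49269936-49270185 on the plus strand. Capitals mark the TATA box letters TATAAA, the CCAAT box letters CCAAT, the E-box letters CANNTG and the GC box letters GGGCGG, searched on both strands.
C1ql2: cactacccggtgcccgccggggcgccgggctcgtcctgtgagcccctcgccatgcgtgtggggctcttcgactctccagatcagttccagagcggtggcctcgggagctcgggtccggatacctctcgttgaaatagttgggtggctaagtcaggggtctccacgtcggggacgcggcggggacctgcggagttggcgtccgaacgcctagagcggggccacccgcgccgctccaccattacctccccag
Cux2: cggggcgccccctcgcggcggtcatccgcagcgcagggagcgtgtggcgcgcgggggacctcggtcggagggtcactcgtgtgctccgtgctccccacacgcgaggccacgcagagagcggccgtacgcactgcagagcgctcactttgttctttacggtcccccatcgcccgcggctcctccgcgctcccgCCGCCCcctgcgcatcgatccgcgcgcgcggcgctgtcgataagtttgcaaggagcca
Lmo4: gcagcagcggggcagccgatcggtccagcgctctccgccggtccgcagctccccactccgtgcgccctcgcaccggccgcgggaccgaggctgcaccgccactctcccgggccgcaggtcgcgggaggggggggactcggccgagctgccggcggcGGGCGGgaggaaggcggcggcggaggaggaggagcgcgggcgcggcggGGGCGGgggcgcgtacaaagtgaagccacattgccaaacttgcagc
Pcp4: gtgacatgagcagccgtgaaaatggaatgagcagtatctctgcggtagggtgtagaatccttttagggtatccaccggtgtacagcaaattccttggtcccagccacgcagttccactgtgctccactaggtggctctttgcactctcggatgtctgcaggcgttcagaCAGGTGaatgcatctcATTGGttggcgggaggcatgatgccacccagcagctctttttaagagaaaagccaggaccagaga

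The 4 windows differed in base composition, with a GC content of 68.8% for C1ql2, 72.4% for Cux2, 77.6% for Lmo4 and 52.4% for Pcp4. GC boxes were found in the Cux2 window (1 match) and the Lmo4 window (2 matches), against 30.5% of 33469 promoters of the same length that hold at least 1. The Pcp4 window held 1 E-box and 1 CCAAT box, which occur in 65.5% and 34% of those promoters. The C1ql2 window held none of these letters, and TATAAA, present in 12.9% of promoters, was in none of the 4. A match describes these letters only, and whether any factor binds there was not measured.

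All 8 genes differed between hippocampus and cortex. Prox1, C1ql2 and Bcl11b were higher in hippocampus, and Rorb, Lmo4, Tshz2, Cux2 and Pcp4 were lower there. The test was edgeR's quasi-likelihood test over all 64 libraries, averaged over the 4 genotype and treatment groups, with p-values adjusted by the Benjamini-Hochberg method and called at 0.05. It called 8 of the 8 genes, on a background of 71.5% of the 15885 genes tested, so the count itself does not set the genes apart. At a difference of at least 2-fold, 5 of the 8 were called, on a background of 8.43%. The ranges of the 32 hippocampal and 32 cortical libraries did not overlap for 4 of the 8 (Prox1, C1ql2, Bcl11b and Cux2), on a background of 8.15% of the genes tested. The median log2 difference was -0.56 over the 8 genes and 0.01 over all genes tested. Because the genes were chosen with earlier results of these data known, their shares against the background are descriptive only.

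Prox1, the homeobox factor that maintains granule cell identity, was at 67.8 to 114 CPM (median 84.7) in the hippocampal libraries and at 10.3 to 18.8 CPM (median 15.7) in the cortical ones. Every hippocampal library lay above every cortical one. The log2 difference was 2.48 ± 0.05 (SE), or 5.58-fold higher in hippocampus (adjusted p = 7.49e-50, edgeR), and 1.28% of the genes tested differed more. C1ql2 codes for a secreted C1q-like protein of mossy fibre synapses, the outputs of granule cells. It was at 63.2 to 134 CPM (median 87.0) in hippocampus and at 2.78 to 8.39 CPM (median 4.59) in cortex. The cortical libraries held 30 to 120 C1ql2 counts each, so counting error weighs more there than for the other 7 genes. The log2 difference was 4.20 ± 0.07, or 18.4-fold higher in hippocampus (adjusted p = 3.00e-51, edgeR), and 0.277% of the genes tested differed more.

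Bcl11b, a zinc finger factor of deep-layer, hippocampal and striatal projection neurons, had 100 to 149 CPM (median 123) in hippocampus and 29.7 to 62.4 CPM (median 42.8) in cortex. Again no library of one region reached the range of the other. This gave a log2 difference of 1.47 ± 0.05, or 2.77-fold higher in hippocampus (adjusted p = 1.56e-37, edgeR). Although it is used as a cortical layer marker, Bcl11b was thus on the same side as the dentate genes in these dissections.

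Cux2, a cut-homeobox factor of the upper layers, had 24.7 to 48.9 CPM (median 32.9) in hippocampus and 88.5 to 132 CPM (median 110) in cortex. The regions did not overlap, and the log2 difference was -1.74 ± 0.04, or 3.34-fold lower in hippocampus (adjusted p = 3.08e-43, edgeR). Rorb, a nuclear receptor of layer 4 neurons, had 4.49 to 11.6 CPM (median 9.19) in hippocampus and 11.4 to 27.3 CPM (median 18.8) in cortex. Its regions touched at their edges, with 2 hippocampal libraries above the lowest cortical one. Its log2 difference was -1.14 ± 0.07, or 2.21-fold lower in hippocampus (adjusted p = 3.01e-22, edgeR).

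Lmo4, a LIM-domain cofactor of upper-layer and callosal neurons, had 62.3 to 103 CPM (median 79.2) in hippocampus and 102 to 171 CPM (median 131) in cortex. Of the hippocampal libraries, 1 lay above the lowest cortical one. Its log2 difference was -0.74 ± 0.03, or 1.67-fold lower in hippocampus (adjusted p = 5.18e-30, edgeR). Tshz2, a teashirt zinc finger factor found in a class of layer 5 neurons, spread more widely, with 21.8 to 75.9 CPM (median 39.9) in hippocampus and 41.5 to 109 CPM (median 67.4) in cortex. In hippocampus, 14 libraries lay above the lowest cortical value. Its log2 difference was -0.79 ± 0.11, or 1.73-fold lower in hippocampus (adjusted p = 1.25e-09, edgeR).

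Pcp4, a small calmodulin-binding protein of deep-layer, CA2, granule and striatal neurons, separated the regions least. It had 67.3 to 126 CPM (median 89.0) in hippocampus and 77.2 to 179 CPM (median 115) in cortex, and 29 hippocampal libraries lay above the lowest cortical one. The log2 difference was -0.37 ± 0.05, or 1.30-fold lower in hippocampus (adjusted p = 8.17e-09, edgeR), and 28% of the genes tested differed more. In hippocampus Pcp4 averaged 89.1 ± 11.9 CPM, and in cortex 116 ± 24.3 CPM (SD, n = 32 libraries each).

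**Figure D1:**
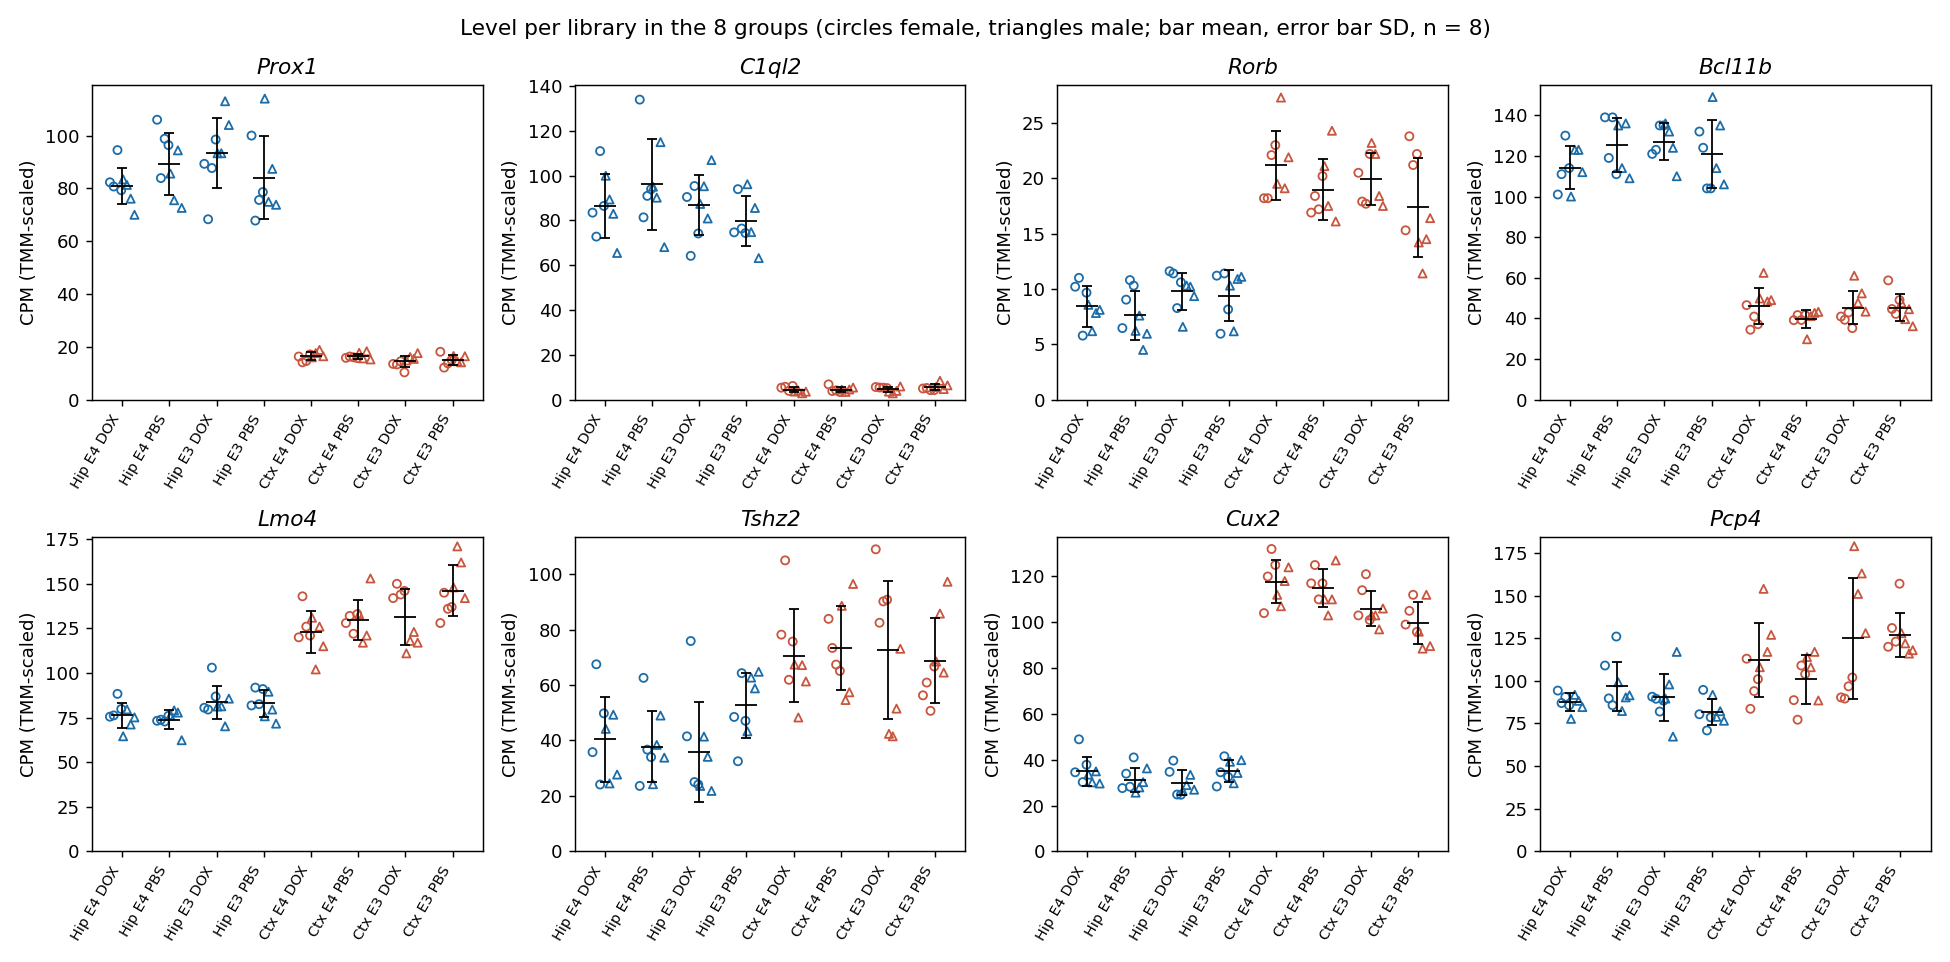
Level of the 8 genes in every library, in TMM-scaled CPM on an axis from 0, by group; Hip is hippocampus, Ctx cortex and DOX doxorubicin, circles are females and triangles males, and the bar and its error show the mean and SD of 8 libraries. Prox1, C1ql2 and Bcl11b sit higher in all 4 hippocampal groups, Cux2 sits lower there, and the 4 groups of one region overlap for every gene.

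The same direction held within single animals. The hippocampus minus cortex difference in log2 CPM of 1 rat was above 0 in 32 of 32 rats for Prox1 (2.02 to 3.24, median 2.46), C1ql2 (3.15 to 5.06, median 4.18) and Bcl11b (0.98 to 2.19, median 1.5). It was below 0 in 32 of 32 rats for Rorb (-2.42 to -0.42, median -1.07), Lmo4 (-1.30 to -0.36, median -0.75) and Cux2 (-2.29 to -1.17, median -1.78). Tshz2 was lower in the hippocampus of 31 rats and higher in 1, an ApoE3 PBS rat, with differences from -1.91 to 0.34 (median -0.65). Pcp4 was lower in the hippocampus of 26 rats and higher in 6, with differences from -1.28 to 0.30 (median -0.38). Of these 6 rats, 4 were ApoE4 PBS rats, whose differences ran from -0.39 to 0.30 around a median of -0.07.

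**Figure D2:**
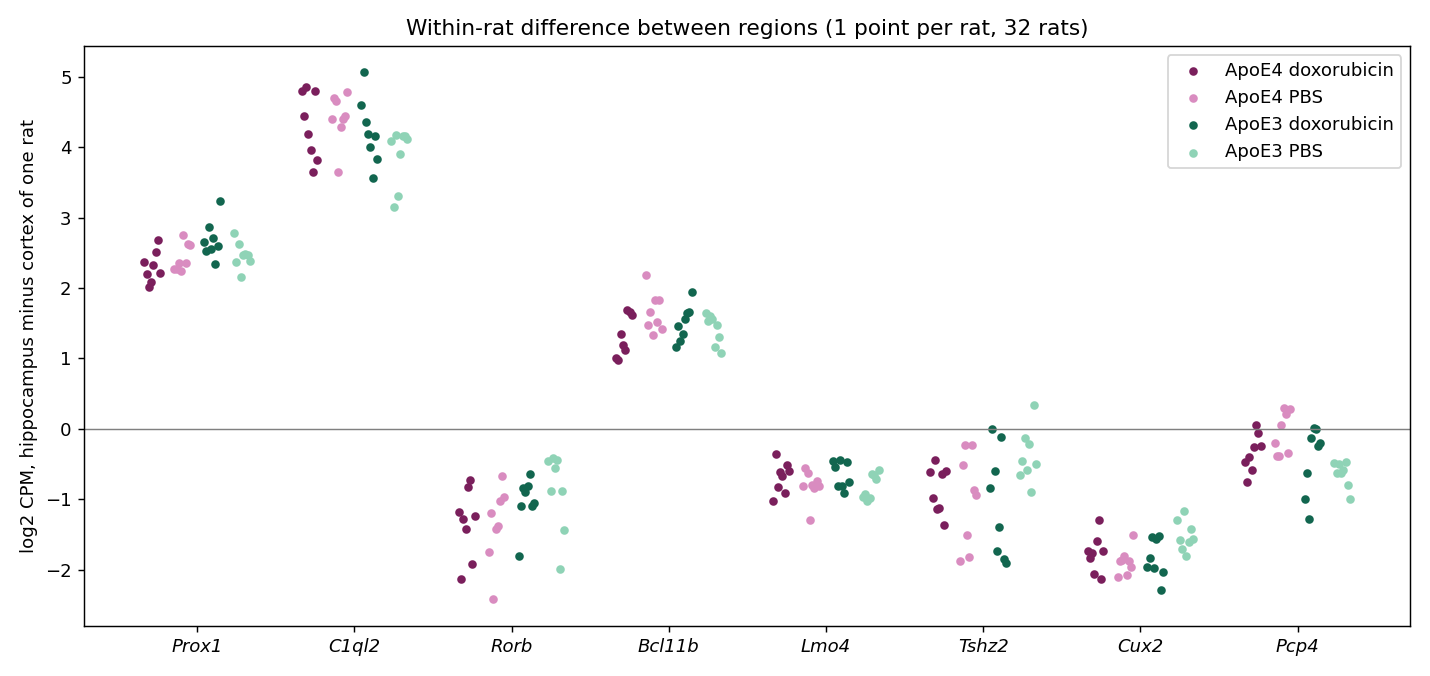
Hippocampus minus cortex difference in log2 CPM for each of the 32 rats, with colours for genotype and treatment and a line at 0. Points of Prox1, C1ql2 and Bcl11b all lie above 0 and those of Rorb, Lmo4 and Cux2 all below, while Tshz2 has 1 rat and Pcp4 has 6 rats above 0.

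Other genes of the same cell classes were taken from lists written for this work, also with earlier results of these data known. Their counts describe the dissected tissue and are not an independent check of it. Of 14 tested dentate granule cell genes (18 listed), 10 were higher and 2 lower in hippocampus by the same edgeR test, on a background of 37.4% higher and 34% lower, and their median log2 difference was 0.35. Sema5a, an axon guidance protein, rose by 0.84 ± 0.04 (SE) on the log2 scale, with a median of 168 CPM in hippocampus and 95.5 CPM in cortex (adjusted p = 3.47e-30, edgeR). Neurod1, a basic helix-loop-helix factor of granule cell maturation, was higher by 1.67 ± 0.09 (adjusted p = 1.24e-26), and Bdnf, a neurotrophin, by 0.91 ± 0.05 (adjusted p = 2.30e-24). Pyramidal cell genes of CA1 were higher in 5 and lower in 1 of 7 tested, with the smallest adjusted p for Gpr161 (log2 difference 2.93 ± 0.07, adjusted p = 1.07e-44, edgeR), Pou3f1 (1.02 ± 0.06) and Wfs1 (0.91 ± 0.07), which the upper-layer list also holds. Dcn, counted here with the CA1 genes but also held by the list of meningeal genes, differed by 1.14 ± 0.14 (adjusted p = 2.21e-10, edgeR). Genes of CA2 and CA3 were higher in 7 and lower in 2 of 11 tested, led by Cpne4 (2.41 ± 0.05, adjusted p = 1.48e-46, edgeR), Bok (2.03 ± 0.04) and Necab2 (1.53 ± 0.04).

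The lists of cortical layer genes were less uniform than Cux2 or Rorb alone. Of 11 tested upper-layer genes, 6 were lower and 4 higher in hippocampus. The background for every list in this paragraph was 34% of all genes called lower and 37.4% called higher. The upper-layer share called higher was near that background. Lamp5, a membrane protein of upper-layer and inhibitory neurons, had a median of 42.1 CPM in hippocampus and 208 CPM in cortex (log2 difference -2.32 ± 0.04, adjusted p = 2.26e-52, edgeR), Pou3f2 differed by -1.61 ± 0.04 and Cux1, the relative of Cux2, by -0.92 ± 0.04. For layer 4, 5 of 8 tested genes were lower and 2 higher. Kcnh5, a voltage-gated potassium channel, had a median of 0.568 CPM in hippocampus and 26.2 CPM in cortex (log2 difference -5.29 ± 0.14, adjusted p = 9.75e-42, edgeR), Hlf differed by -1.12 ± 0.05 and Plcxd2 by 0.45 ± 0.04.

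Layer 5 genes also went both ways, while layer 6 genes were mostly lower in hippocampus. Of 13 tested layer 5 genes, 8 were lower and 4 higher in hippocampus. The background for this and the other lists of this paragraph was again 34% of all genes called lower and 37.4% called higher. Among the layer 5 genes were Tcerg1l at -1.95 ± 0.06 (adjusted p = 2.29e-38, edgeR), Deptor at -0.85 ± 0.05 and Bcl6 at 0.66 ± 0.04. Of 14 tested layer 6 genes, 11 were lower and 1 higher, and the median was -0.67. Tbr1, a T-box factor of layer 6 neurons, had a median of 22.0 CPM in hippocampus and 77.3 CPM in cortex (log2 difference -1.83 ± 0.05, adjusted p = 1.72e-41, edgeR), Garnl3 differed by -1.59 ± 0.04 and Rprm by -2.65 ± 0.08. All 13 tested striatal projection neuron genes were lower in hippocampus, with a median of -1.21. Among them, Foxp1, a forkhead factor, differed by -0.64 ± 0.04 (adjusted p = 6.15e-24, edgeR) and Penk, an opioid precursor gene, by -1.49 ± 0.10 (adjusted p = 7.12e-22, edgeR). The part of striatal tissue in the cortical values was not tested.

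The regional difference was then taken within each genotype and treatment group. In ApoE4 doxorubicin rats 8 of the 8 genes were called (edgeR, background 49.9% of 15885 genes), and in ApoE3 doxorubicin rats also 8 (background 49.8%). In ApoE4 PBS rats 7 were called (background 50.3%), and in ApoE3 PBS rats 7 (background 50.9%). The gene that missed the threshold was Pcp4 in ApoE4 PBS rats, at a log2 difference of -0.05 ± 0.11 (SE, adjusted p = 0.718), and Tshz2 in ApoE3 PBS rats, at -0.39 ± 0.21 (adjusted p = 0.116). Each other estimate had the sign of the average over groups. Between the 4 groups the estimates spanned 2.31 to 2.68 for Prox1, 3.88 to 4.43 for C1ql2, 1.31 to 1.66 for Bcl11b, -1.87 to -1.51 for Cux2, -1.34 to -0.87 for Rorb, -0.82 to -0.65 for Lmo4, -1.01 to -0.39 for Tshz2 and -0.64 to -0.05 for Pcp4. Without the 4 cortical libraries high in striatal markers, 3 of which were ApoE3 doxorubicin males, the Pcp4 difference in ApoE3 doxorubicin rats was -0.18 instead of -0.46 and was no longer called.

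**Figure D3:**
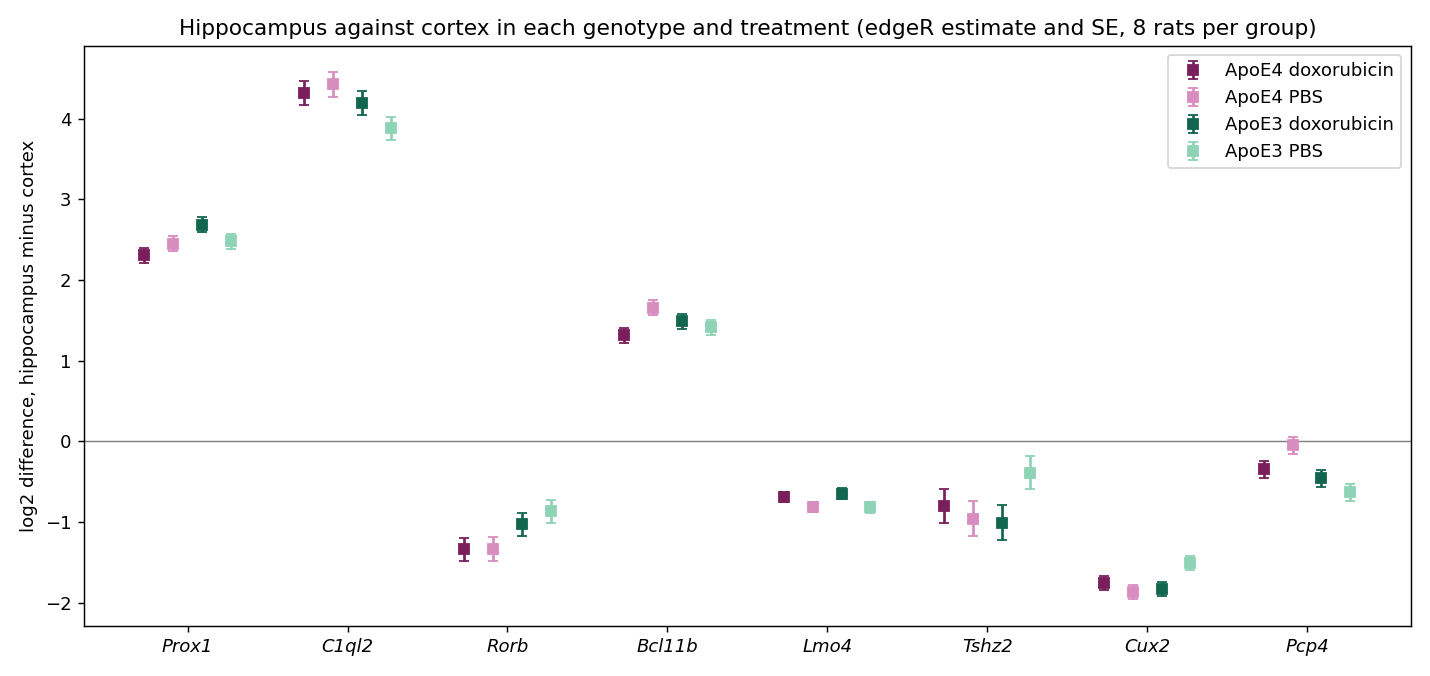
Hippocampus minus cortex log2 difference of each gene, with its SE, in the 4 genotype and treatment groups (8 rats each, edgeR). The 4 estimates of a gene lie on the same side of 0, and those of Pcp4 and Tshz2 come closest to it.

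Whether the regional difference itself changed with genotype was tested in PBS rats. None of the 8 genes passed (edgeR, 46 of 15885 genes called, background 0.29%), 4 had an unadjusted p below 0.05 (13.5% of all genes did), and DESeq2 called 1, Pcp4 (0.642% of all genes). The hippocampus minus cortex difference of Pcp4 was -0.05 in ApoE4 PBS rats and -0.64 in ApoE3 PBS rats, which differ by 0.58 ± 0.15 on the log2 scale (adjusted p = 0.0637, edgeR). Pcp4 was at 82.3 to 126 CPM (median 90.9) in the hippocampus of ApoE4 PBS rats and at 70.9 to 94.7 CPM (median 79.7) in that of ApoE3 PBS rats. In cortex it was at 77.2 to 117 CPM (median 106) in ApoE4 PBS rats and at 116 to 157 CPM (median 122) in ApoE3 PBS rats. The genotypes thus lay in opposite order in the 2 regions, with overlap in both. Without the 4 cortical libraries high in striatal markers, none of them from a PBS rat, the value was 0.58 and Pcp4 was called. The other 3 genes below 0.05 unadjusted were Cux2 (-0.36 ± 0.12), C1ql2 (0.54 ± 0.21) and Rorb (-0.47 ± 0.20), with adjusted p from 0.183 to 0.303.

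Whether doxorubicin changed the regional difference was tested within each genotype. In ApoE4 rats none of the 8 genes and none of the 15432 genes tested passed (edgeR, background 0%), 2 of the 8 had an unadjusted p below 0.05 (3.59% of all genes did), and DESeq2 called 0 genes. These 2 were Bcl11b, at -0.33 ± 0.12 on the log2 scale, and Pcp4, at -0.29 ± 0.14. In ApoE3 rats none of the 8 and none of the 15428 genes tested passed either (edgeR, background 0%), 2 of the 8 had an unadjusted p below 0.05 (8% of all genes did), and DESeq2 called 126 genes (0.817%) but none of the 8. Here the 2 were Tshz2, at -0.63 ± 0.30, and Cux2, at -0.32 ± 0.12.

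Doxorubicin against PBS within a region moved none of the 8 genes past the threshold. In the hippocampus of ApoE4 rats 0 of the 8 and 0 of 14873 genes tested were called (edgeR, background 0%), 2 of the 8 had an unadjusted p below 0.05 (7.38% of all genes did), and DESeq2 called 1 gene (0.00672%). In the hippocampus of ApoE3 rats 0 of the 8 and 0 of 14899 were called (edgeR, background 0%), again with 2 of the 8 below 0.05 unadjusted (10.3% of all genes), and DESeq2 called 145 genes (0.973%). For the cortex of ApoE4 rats the counts were 0 of the 8 and 0 of 14838 (edgeR, background 0%), with 1 of the 8 below 0.05 unadjusted (8.82% of all genes), and 37 genes (0.249%) by DESeq2. For the cortex of ApoE3 rats they were 0 of the 8 and 0 of 14775 (edgeR, background 0%), with 1 of the 8 below 0.05 unadjusted (9.25% of all genes), and 77 genes (0.521%) by DESeq2. None of the genes called by DESeq2 was among the 8, and none of the 8 had an adjusted p below 0.05 in the authors' deposited tables. In ApoE4 cortex 3 of the 8 (Prox1, C1ql2 and Rorb) had no adjusted p in either, so they could not be called there.

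In the dentate pair, Prox1 averaged 80.9 ± 6.95 CPM in the hippocampus of ApoE4 doxorubicin rats and 89.2 ± 11.8 CPM in that of ApoE4 PBS rats (SD, n = 8 each), a log2 difference of -0.14 ± 0.06 (adjusted p = 0.646, edgeR). In ApoE3 rats the means were 93.4 ± 13.0 CPM with doxorubicin and 84.0 ± 15.6 CPM with PBS, a log2 difference of 0.15 ± 0.10 (adjusted p = 0.641, edgeR). The 2 estimates had opposite signs, and the groups overlapped in both genotypes. C1ql2 averaged 86.4 ± 14.3 CPM in ApoE4 doxorubicin and 96.1 ± 20.2 CPM in ApoE4 PBS hippocampus (log2 difference -0.16 ± 0.12, adjusted p = 0.763, edgeR). In ApoE3 hippocampus it averaged 86.9 ± 13.5 CPM with doxorubicin and 79.9 ± 11.2 CPM with PBS (0.12 ± 0.10, adjusted p = 0.732, edgeR). In cortex both genes were low in each of the 4 groups, with means of 14.5 to 16.4 CPM for Prox1 and 4.36 to 5.44 CPM for C1ql2.

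The largest estimate of a doxorubicin difference among the 8 genes was that of Tshz2 in ApoE3 hippocampus. Tshz2 was at 21.8 to 75.9 CPM (median 29.6) in doxorubicin rats and at 32.5 to 64.8 CPM (median 53.7) in PBS rats. The doxorubicin group held both the lowest values and, in 1 female (rat 66), the highest, so the ranges overlapped fully. The full overlap rested on that library, which lay far from its group: the next doxorubicin value was 41.5 CPM. The log2 difference was -0.57 ± 0.23 (adjusted p = 0.387, edgeR), and in the authors' deposited table it was -0.55 with an adjusted p of 0.390. In ApoE4 hippocampus Tshz2 was at 24.1 to 67.5 CPM (median 40.0) with doxorubicin and at 23.6 to 62.6 CPM (median 35.3) with PBS, a log2 difference of 0.09 ± 0.23 (adjusted p = 0.947, edgeR). Cux2 in ApoE3 hippocampus was at 24.7 to 39.6 CPM (median 27.9) with doxorubicin and at 28.3 to 41.5 CPM (median 34.4) with PBS (log2 difference -0.23 ± 0.11, adjusted p = 0.479, edgeR).

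The other hippocampal estimates were small. In ApoE4 rats Pcp4 averaged 87.5 ± 5.12 CPM with doxorubicin and 96.7 ± 14.5 CPM with PBS (log2 difference -0.15 ± 0.07, adjusted p = 0.668, edgeR), and Bcl11b 114 ± 10.6 CPM with doxorubicin and 125 ± 13.2 CPM with PBS (-0.14 ± 0.07, adjusted p = 0.670). In ApoE3 rats Pcp4 averaged 90.3 ± 14.0 CPM with doxorubicin and 81.8 ± 7.88 CPM with PBS (0.14 ± 0.09, adjusted p = 0.607). Lmo4 differed by 0.04 ± 0.06 in ApoE4 and 0.01 ± 0.06 in ApoE3 hippocampus. Rorb differed by 0.16 ± 0.15 in ApoE4 and 0.05 ± 0.15 in ApoE3 hippocampus.

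In cortex the estimates ran from -0.20 to 0.22 over the 8 genes and both genotypes. Bcl11b averaged 46.1 ± 8.77 CPM in ApoE4 doxorubicin and 39.8 ± 4.33 CPM in ApoE4 PBS cortex (log2 difference 0.19 ± 0.09, adjusted p = 0.530, edgeR). Lmo4 averaged 131 ± 15.6 CPM in ApoE3 doxorubicin and 146 ± 14.1 CPM in ApoE3 PBS cortex (-0.16 ± 0.07, adjusted p = 0.497, edgeR). Rorb averaged 20.0 ± 2.37 CPM in ApoE3 doxorubicin and 17.4 ± 4.46 CPM in ApoE3 PBS cortex (0.22 ± 0.11, adjusted p = 0.553, edgeR). Cux2 had the narrowest error, at 0.03 ± 0.05 in ApoE4 and 0.09 ± 0.05 in ApoE3 cortex. The summed striatal markers had a median of 418 CPM (357 to 914 CPM) with doxorubicin and 437 CPM (377 to 626 CPM) with PBS in ApoE4 cortex, and of 457 CPM (348 to 836 CPM) with doxorubicin and 477 CPM (368 to 576 CPM) with PBS in ApoE3 cortex. In both genotypes the doxorubicin group thus had the lower median and the higher maximum. Without the 4 libraries high in these markers, 0 of the 8 genes were called in either genotype. Only 11 genes in all were then called in ApoE3 cortex (edgeR), so 0 of 8 does not set the genes apart. The C1ql2 estimate in ApoE3 cortex was 0.12 instead of -0.20.

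**Figure D4:**
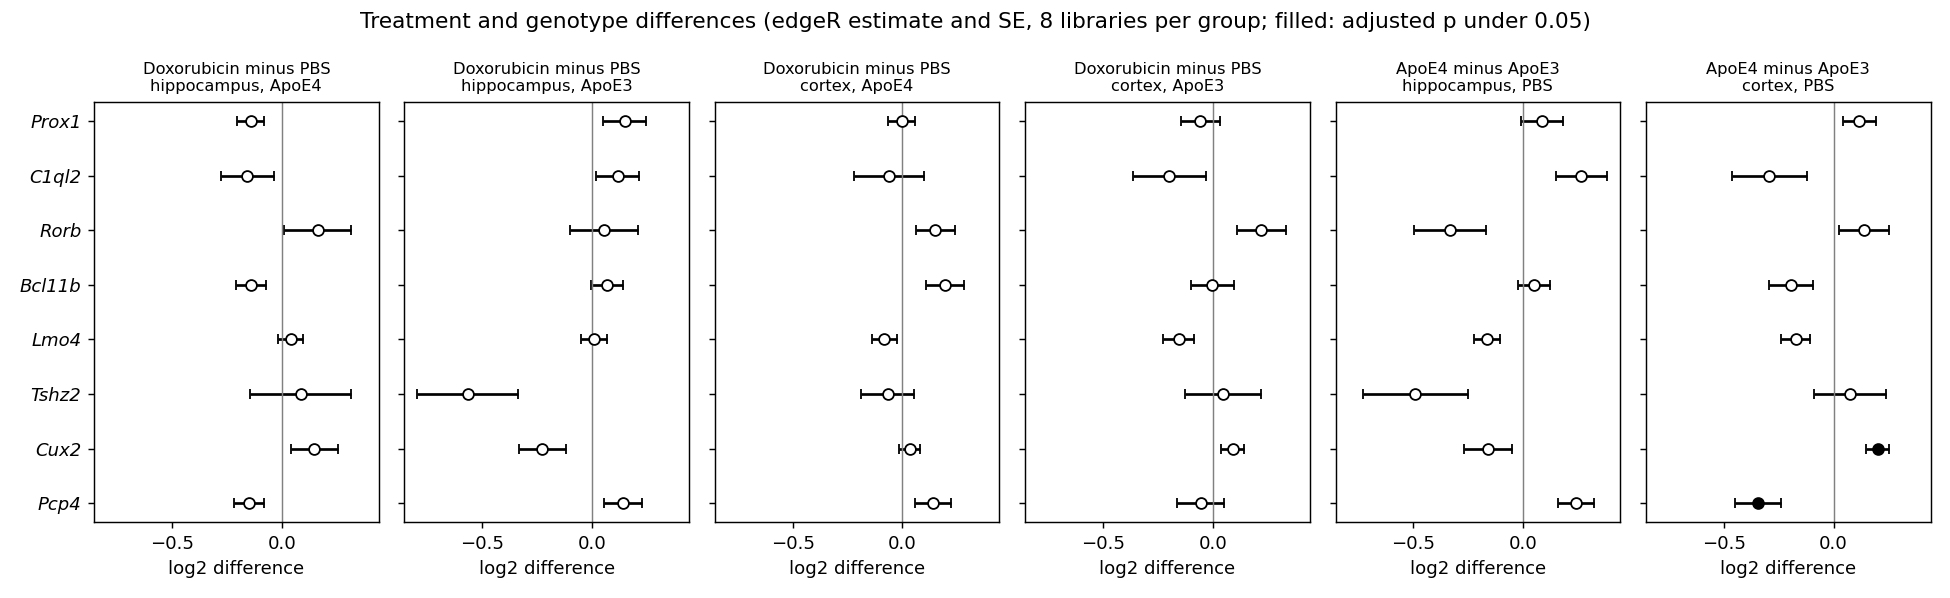
Log2 difference and SE of the 8 genes for doxorubicin against PBS in 4 combinations of region and genotype, and for ApoE4 against ApoE3 in PBS rats of each region (edgeR, 8 libraries per group). Filled points passed an adjusted p of 0.05: these are Cux2 and Pcp4 between genotypes in cortex.

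Between genotypes without the drug, 2 of the 8 genes differed in cortex, where 18.2% of 15315 genes tested were called (2788 genes, edgeR), so 2 of 8 is close to that background. Cux2 was higher in ApoE4 PBS cortex, at 103 to 127 CPM (median 113), than in ApoE3 PBS cortex, at 88.5 to 112 CPM (median 97.5). The ranges overlapped between 103 and 112 CPM, and the log2 difference was 0.20 ± 0.05 (adjusted p = 0.00553, edgeR). Pcp4 was lower in ApoE4 PBS cortex, at 77.2 to 117 CPM (median 106), than in ApoE3 PBS cortex, at 116 to 157 CPM (median 122). Here the ranges met at their edges only, and the log2 difference was -0.34 ± 0.10 (adjusted p = 0.0178, edgeR). Lmo4 had -0.17 ± 0.07 (adjusted p = 0.0661, edgeR) and was called, at -0.17, without the 4 libraries high in striatal markers. The Pcp4 call was lost when sex was left out of the fit, and the Cux2 call was lost in one fit of all 64 libraries.

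Markers of other cells also differed between these cortical groups, on a background of 9.63% of all genes tested called higher and 8.57% called lower. Of 10 tested meningeal genes, 7 were higher in ApoE4 PBS cortex and 0 lower, with Col1a1, a fibrillar collagen, at a log2 difference of 1.23 ± 0.27 (adjusted p = 0.00134, edgeR), and their summed level was 144 to 448 CPM in ApoE4 PBS cortex and 118 to 243 CPM in ApoE3 PBS cortex. Microglial genes were lower in 5 and higher in 1 of 9 tested, with P2ry12, a purinergic receptor, at -0.59 ± 0.11 (adjusted p = 0.000123, edgeR). None of 13 tested striatal genes was called, and their sum was 377 to 626 CPM in ApoE4 PBS cortex and 368 to 576 CPM in ApoE3 PBS cortex. Of the layer lists, 4 of 14 tested layer 6 genes were lower and 0 higher: Rprm at -0.54 ± 0.12 (adjusted p = 0.00137, edgeR), Ctgf at -0.47 ± 0.13, Syt6 at -0.46 ± 0.10 and Garnl3 at -0.17 ± 0.05. Layer 5 genes were higher in 2 of 13 tested (Deptor, 0.53 ± 0.08, and Parm1, 0.24 ± 0.07), layer 4 genes in 1 of 8 (Plcxd2, 0.58 ± 0.10) and upper-layer genes in 2 of 11 (Mdga1, 0.43 ± 0.13, and Nectin3, 0.24 ± 0.08), shares of few genes each that are near the background. The part of meningeal or microglial RNA in the Cux2 and Pcp4 differences was not tested. Rat numbers run in blocks by genotype, sex and treatment, so a batch that follows them cannot be told apart from genotype or treatment.

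In hippocampus 0 of the 8 genes differed between the genotypes in PBS rats, where 3.81% of 15416 genes were called (edgeR). Unadjusted, 5 of the 8 had a p below 0.05, against 16% of all genes, and DESeq2 called 0 of the 8 (4.53% of all genes). Pcp4 had the smallest, with a log2 difference of 0.24 ± 0.08 (adjusted p = 0.111, edgeR), opposite in sign to its cortical difference. Lmo4 followed at -0.16 ± 0.06 (adjusted p = 0.133, edgeR), C1ql2 at 0.27 ± 0.12, Rorb at -0.33 ± 0.16 and Tshz2 at -0.49 ± 0.24. Of 14 tested dentate granule genes, 3 were higher in ApoE4 PBS hippocampus and 0 lower: Dsp, a desmosomal protein, at 1.73 ± 0.33 (adjusted p = 0.00113, edgeR), Plk5 at 0.55 ± 0.12 and Trpc6 at 0.35 ± 0.08, on a background of 1.93% of all genes called higher. Neither Prox1 (0.09 ± 0.10) nor C1ql2 was called with them. The ApoE4 PBS group held rats 7 and 26, with choroid plexus sums of 17100 and 7570 CPM in hippocampus. The ApoE3 PBS group held rat 37, at 4380 CPM. The calls of Dsp, Plk5 and Trpc6 were not tested without these libraries.

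Whether the doxorubicin difference depended on genotype was tested in each region. In hippocampus 0 of the 8 and 0 of 15416 genes passed (edgeR, background 0%), 3 of the 8 had an unadjusted p below 0.05 (8.18% of all genes did), and DESeq2 called 2 genes (0.013%), neither among the 8. The 3 were Pcp4 (-0.29 ± 0.12), Cux2 (0.38 ± 0.16) and Prox1 (-0.29 ± 0.14), each with an adjusted p above 0.5. In cortex 0 of the 8 and 0 of 15315 passed (edgeR, background 0%), 0 of the 8 had an unadjusted p below 0.05 (5.45% of all genes did), and DESeq2 called 0 genes.

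Females and males were compared over the 4 groups of each region. In hippocampus 0 of the 8 genes were called (edgeR, 17 of 15416 genes, background 0.11%), 2 had an unadjusted p below 0.05 (9.49% of all genes did), and DESeq2 called 0 of the 8 (0.311% of all genes). These 2 were Lmo4, at 0.10 ± 0.04, and Rorb, at 0.24 ± 0.11. In cortex 0 of the 8 were called (edgeR, 108 of 15315 genes, background 0.705%), 3 had an unadjusted p below 0.05 (15% of all genes did), and DESeq2 called 1 of the 8, Pcp4 (2.09% of all genes). Pcp4 was lower in female cortex by a log2 difference of -0.28 ± 0.07 (adjusted p = 0.0562, edgeR), Prox1 differed by -0.15 ± 0.05 and Cux2 by 0.08 ± 0.04. Striatal genes were lower in female cortex in 4 of 13 tested and higher in 0 (0.437% of all genes were called lower). Among them were Drd1, the D1 dopamine receptor, at -0.58 ± 0.13 (adjusted p = 0.0403, edgeR), Adora2a at -0.89 ± 0.22 and Ppp1r1b at -0.46 ± 0.11. The 4 cortical libraries high in striatal markers were all from males. Without them edgeR called 20 genes for sex in cortex in place of 108. The uncalled estimates of Lmo4 and Tshz2 then changed sign, to -0.0215 and -0.0242. The part of striatal tissue in these sex differences was not tested beyond this.

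The clearest departure from stability was in the cortex of ApoE3 rats, where the doxorubicin difference was not the same in females and males. This comparison was added after the values had been seen. The sex by treatment term called 4 of the 8 genes (edgeR, 380 of 14775 genes, background 2.57%), and in the other 3 combinations of region and genotype it called 0 of the 8. The background by edgeR was 0% in the hippocampus of both genotypes and 0.00674% in ApoE4 cortex. Unadjusted, 0 of the 8 had a p below 0.05 in ApoE4 hippocampus (3.49% of all genes) and 0 in ApoE3 hippocampus (4.45%), and 1, Bcl11b at -0.44 ± 0.15, in ApoE4 cortex (5.84%). DESeq2 called 0 of the 8 in each (0.00672%, 0% and 0.142% of all genes).

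Pcp4 had 89.6, 90.3, 96.8 and 102 CPM in the cortex of ApoE3 doxorubicin females, against 120 to 157 CPM (median 127) in ApoE3 PBS females. In males it had 128, 151, 163 and 179 CPM with doxorubicin, against 116 to 128 CPM (median 120) with PBS. Doxorubicin females therefore lay below all PBS females, and doxorubicin males at or above the top of the PBS males. The female minus male difference of the doxorubicin effect was -0.83 ± 0.12 on the log2 scale (adjusted p = 0.00110, edgeR). Tshz2 went the other way, with a mean of 93.1 ± 11.2 CPM in doxorubicin females and 58.6 ± 6.80 CPM in PBS females, and 52.1 ± 14.7 CPM in doxorubicin males and 79.0 ± 15.3 CPM in PBS males (SD, n = 4 each). Its female minus male difference was 1.27 ± 0.21 (adjusted p = 0.00260, edgeR).

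Lmo4 moved like Tshz2. It averaged 145 ± 3.56 CPM in doxorubicin females and 136 ± 7.01 CPM in PBS females, and 117 ± 4.94 CPM in doxorubicin males and 156 ± 13.1 CPM in PBS males, a difference of effects of 0.51 ± 0.08 (adjusted p = 0.00260, edgeR). Bcl11b moved like Pcp4, with 39.6 ± 3.26 CPM in doxorubicin females and 48.6 ± 7.29 CPM in PBS females, and 51.1 ± 7.58 CPM in doxorubicin males and 42.0 ± 5.15 CPM in PBS males (-0.56 ± 0.15, adjusted p = 0.0478, edgeR). Within the doxorubicin group alone, females and males did not overlap for 5 of the 8 genes (Prox1, Bcl11b, Lmo4, Tshz2 and Pcp4), on a background of 13.4% of the genes tested. Rorb (-0.57 ± 0.19, adjusted p = 0.0890, edgeR) and C1ql2 (0.81 ± 0.29, adjusted p = 0.117, edgeR) were not called, although Rorb was called without the filter on low counts (-0.57 ± 0.16, adjusted p = 0.0377, edgeR). Cux2 had an estimate of 0.02 ± 0.10.

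The summed striatal markers split the same libraries. They were 348 to 438 CPM in ApoE3 doxorubicin females and 456 to 561 CPM in ApoE3 PBS females, and 477 to 836 CPM in ApoE3 doxorubicin males and 368 to 576 CPM in ApoE3 PBS males. By the sex by treatment term, 9 of 13 tested striatal genes were called lower and 0 higher (1.81% of all genes were called lower), among them Drd2, the D2 dopamine receptor, at -2.27 ± 0.39 (adjusted p = 0.00334, edgeR), and Ppp1r1b at -0.99 ± 0.18. Some markers of the list were above 0 in every cortical library, at no less than 5.26 CPM for Drd1, 3.62 CPM for Drd2 and 3.69 CPM for Adora2a. On average over groups they were lower in hippocampus by 2.27-fold, 4.51-fold and 3.08-fold. The summed list was at 202 to 318 CPM in hippocampus too, so a level above 0 does not by itself mark striatal tissue. Without the 3 males high in these markers 0 of the 8 genes and 4 genes in all were called. The estimates were then -0.56 for Pcp4, 0.78 for Tshz2 and -0.33 for Bcl11b (adjusted p = 0.296, 0.426 and 0.747, edgeR), all nearer to 0, with 1 doxorubicin male left, whose spread is taken from the other libraries. For Lmo4 the estimate was 0.51 with and without these males, and its SE was then 0.12 in place of 0.08. Doxorubicin females still lay below PBS females in striatal sum, so the unchanged Lmo4 value cannot be told apart from striatal content. The part of striatal tissue in these differences was not tested beyond this.

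**Figure D5:**
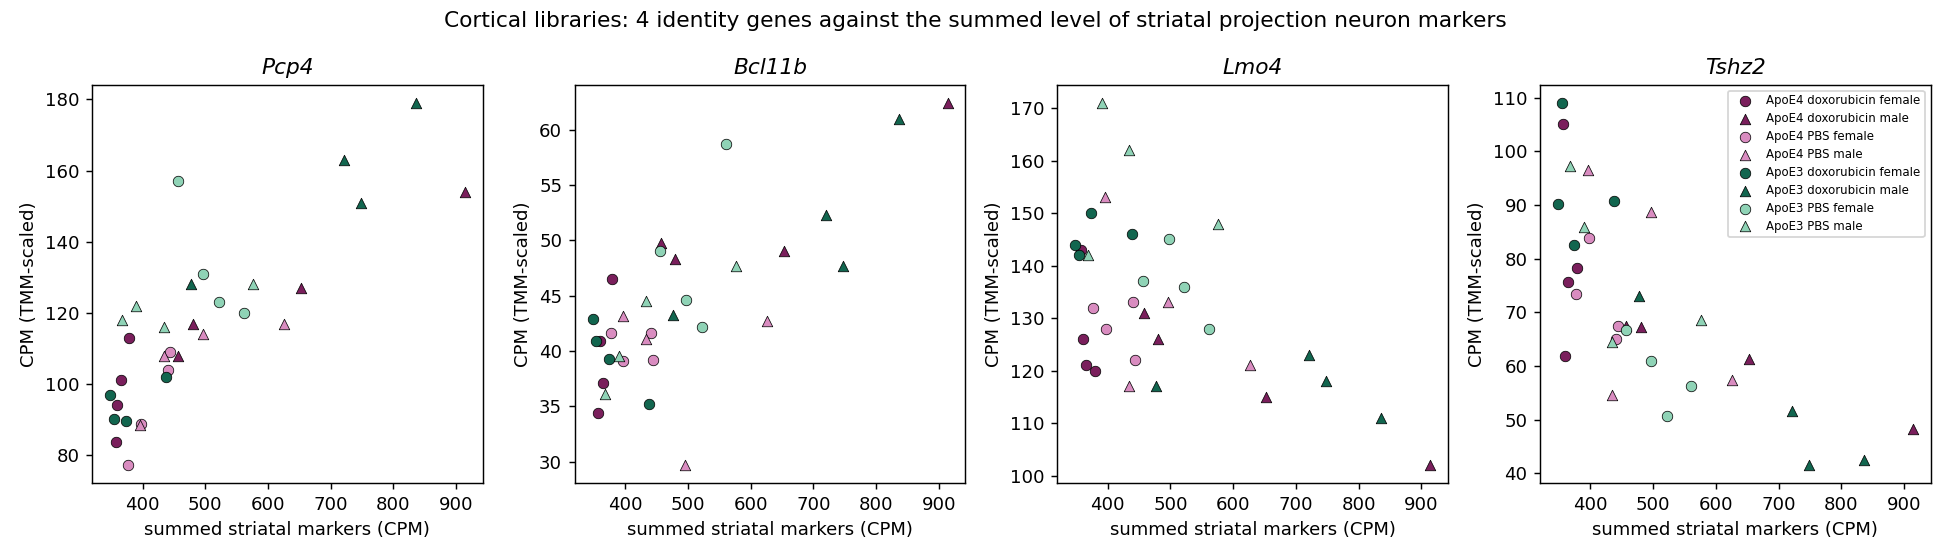
Level of Pcp4, Bcl11b, Lmo4 and Tshz2 (CPM) in the 32 cortical libraries against the summed CPM of 13 striatal projection neuron genes, with colours for genotype and treatment, circles for females and triangles for males. Pcp4 and Bcl11b are higher and Lmo4 and Tshz2 lower in libraries with higher striatal sums, and the 4 libraries with the highest sums are doxorubicin males.

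How the genes varied together from library to library was measured after the mean of each group was subtracted from log2 CPM. In all 72 relations were computed: the 28 pairs in each region, each gene against the mean of the striatal genes in cortex, and each gene against the mean of the other dentate granule genes in hippocampus. Of these, 29 had an adjusted p below 0.05 for Pearson's r (two-sided permutation test within groups with 100000 shuffles, Benjamini-Hochberg over the 72), 21 in cortex and 8 in hippocampus. Without TMM factors 27 passed, and the 2 lost were both in hippocampus: C1ql2 with Bcl11b (r = 0.375 and adjusted p = 0.0827 by the same permutation test, in place of r = 0.42 and 0.0497) and C1ql2 with Tshz2 (r = -0.43 and adjusted p = 0.0576, in place of r = -0.44 and 0.0445). All points of a relation share a library, its depth and its dissection. The subtracted means were those of both sexes together, and the shuffles mixed the sexes. A sex difference inside a group, such as that in ApoE3 doxorubicin cortex, therefore stays in r. It also stays in the values given within females and within males, which are not covariation among like animals alone.

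In cortex the strongest relation was that of Pcp4 to the striatal mean, with r = 0.85 and rho = 0.84 over 32 libraries (permutation p = 1e-05 for both, the smallest the shuffles can give, adjusted p = 0.00036 for both). Without the 2 libraries farthest from the median r was 0.79. Within females and within males it was 0.63 and 0.91, with the means of both sexes subtracted, so differences between groups of one sex remain in these values. Bcl11b also rose with the striatal mean (r = 0.67, rho = 0.65, permutation p = 0.00012 and 0.0002, adjusted p = 0.00108 and 0.00198, r = 0.52 without the 2 farthest). Tshz2 fell with it (r = -0.76, rho = -0.76, permutation p = 2e-05 and 1e-05, adjusted p = 0.00036 for both, r = -0.70 without the 2 farthest), and so did Lmo4 (r = -0.68, rho = -0.63, permutation p = 0.00023 and 0.00063, adjusted p = 0.00166 and 0.00454, r = -0.57 without the 2 farthest).

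The same 4 genes were related among themselves. Lmo4 and Tshz2 varied together (r = 0.75, rho = 0.72, permutation p = 1e-05 and 4e-05, adjusted p = 0.00036 and 0.00072), with r = 0.73 without the 2 farthest libraries and 0.78 and 0.72 within females and within males. Pcp4 ran against Lmo4 (r = -0.74, rho = -0.69, permutation p = 5e-05 and 0.00017, adjusted p = 0.000514 and 0.00198, r = -0.73 without the 2 farthest). C1ql2, although low in cortex, varied with Tshz2 (r = 0.74, rho = 0.74, permutation p = 2e-05 and 3e-05, adjusted p = 0.00036 and 0.00072, r = 0.69 without the 2 farthest). Without the 4 libraries high in striatal markers, 8 of the 72 relations passed in place of 29, 5 of them in cortex. The striatal mean then no longer passed with Bcl11b (r = 0.37, adjusted p = 0.158), Lmo4 (r = -0.45, adjusted p = 0.0882) or Tshz2 (r = -0.495, adjusted p = 0.0774), by the same permutation test over 28 libraries. Of the relations that passed, Pcp4 with the striatal mean was at r = 0.63 (adjusted p = 0.00876) and Lmo4 with Tshz2 at 0.63 (adjusted p = 0.00876). Lmo4 with Pcp4 was at -0.58 (adjusted p = 0.0255), all by the same permutation test. Hippocampal relations kept their r, as no hippocampal library was left out. Some of them also lost their call, because the adjustment ran over all 72 together. In hippocampus Rorb with Cux2 went from an adjusted p of 0.0237 to 0.0539, by the same permutation test. Rorb with Tshz2 there went from 0.0264 to 0.0622.

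In hippocampus the 2 dentate genes varied together (Prox1 and C1ql2, r = 0.58, rho = 0.50, permutation p = 0.00069 and 0.00625, adjusted p = 0.00382 and 0.0216, r = 0.60 without the 2 farthest libraries). Prox1 also followed the mean of the other dentate granule genes (r = 0.63, rho = 0.51, permutation p = 0.00041 and 0.00599, adjusted p = 0.00268 and 0.0216, r = 0.59 without the 2 farthest). For C1ql2 and that mean r was 0.43 and rho 0.30 (permutation p = 0.0271 and 0.122, adjusted p = 0.0591 and 0.191), which did not pass. The cortical genes Tshz2 and Cux2 formed a second pair (r = 0.65, rho = 0.61, permutation p = 0.00017 and 0.00056, adjusted p = 0.00136 and 0.00448, r = 0.59 without the 2 farthest), with r of 0.75 within females and 0.42 within males. Rorb varied with Tshz2 (r = 0.46, rho = 0.49, permutation p = 0.00879 and 0.00658, adjusted p = 0.0264 and 0.0216, r = 0.54 without the 2 farthest). It also varied with Cux2 (r = 0.49, rho = 0.50, permutation p = 0.00657 and 0.00523, adjusted p = 0.0237 and 0.0209, r = 0.49 without the 2 farthest).

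Among 12174 genes with an official symbol and an average of at least 1 on the log2 CPM scale, those whose group-centred levels were most like each of the 8 are given as a description. In the 32 hippocampal libraries they were Ablim3 (r = 0.76), Xkr8 (0.72) and Pitpnm2 (0.71) for Prox1, and Pitpnm2 (0.81), Stk32c (0.81) and Sgsm2 (0.81) for C1ql2. In the 32 cortical libraries Pcp4 was most like Scn4b (r = 0.89), a sodium channel beta subunit, the dopamine receptor gene Drd2 (0.85) and the opioid precursor gene Penk (0.85), the last 2 of which the striatal list holds. Bcl11b was most like Egr3 (0.82), Mast3 (0.78) and Adcy5 (0.78), and Tshz2 like Klf5 (0.77), Lmo4 (0.75) and Uap1l1 (0.75). Lmo4 was most like Pias3 (0.76), Doc2a (0.76) and Tmem150c (0.76), Cux2 was close to Phf12 (0.77) and Mapt (0.76), and Rorb was most like Xpr1 (0.73), Mblac1 (0.72) and Mei1 (0.72).

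Ordered by mean CPM over the 8 groups, each gene had its 4 groups of one region together, and 1 of the 7 steps between neighbouring groups crossed from one region to the other. For Prox1, C1ql2, Bcl11b and Cux2 that step was the one without overlap of the libraries. For Rorb, Lmo4, Tshz2 and Pcp4 all 7 steps overlapped. Within a region the largest step was 1.07 times the larger SD of its groups, for Cux2, and the largest steps of the other 7 genes were 0.426 to 0.94 SD. The cortical order of Cux2 was 118 ± 9.51 CPM in ApoE4 doxorubicin rats, 115 ± 8.25 in ApoE4 PBS rats, 106 ± 7.78 in ApoE3 doxorubicin rats and 99.8 ± 9.17 in ApoE3 PBS rats (SD, n = 8 each), with neighbours overlapping.

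The levels of the other genes by group, as mean and SD of 8 libraries, lay as close together within a region. In hippocampus Bcl11b was at 114 ± 10.6 CPM in ApoE4 doxorubicin, 125 ± 13.2 in ApoE4 PBS, 127 ± 9.09 in ApoE3 doxorubicin and 121 ± 16.6 in ApoE3 PBS rats. In cortex it was at 46.1 ± 8.77 CPM in ApoE4 doxorubicin, 39.8 ± 4.33 in ApoE4 PBS, 45.3 ± 8.17 in ApoE3 doxorubicin and 45.3 ± 6.84 in ApoE3 PBS rats. The spread inside a group exceeded the steps between them. Lmo4 in hippocampus was at 76.3 ± 6.93 CPM in ApoE4 doxorubicin, 73.9 ± 5.18 in ApoE4 PBS, 83.5 ± 9.42 in ApoE3 doxorubicin and 82.9 ± 7.38 in ApoE3 PBS rats, lower in both ApoE4 groups. Its cortical levels were 123 ± 11.8 CPM in ApoE4 doxorubicin, 130 ± 11.3 in ApoE4 PBS, 131 ± 15.6 in ApoE3 doxorubicin and 146 ± 14.1 in ApoE3 PBS rats, with overlap of neighbouring groups.

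Rorb in hippocampus was at 8.42 ± 1.85 CPM in ApoE4 doxorubicin, 7.61 ± 2.25 in ApoE4 PBS, 9.8 ± 1.69 in ApoE3 doxorubicin and 9.4 ± 2.31 in ApoE3 PBS rats. Cortical Rorb was at 21.2 ± 3.1 CPM in ApoE4 doxorubicin, 19.0 ± 2.76 in ApoE4 PBS, 20.0 ± 2.37 in ApoE3 doxorubicin and 17.4 ± 4.46 in ApoE3 PBS rats. Tshz2 spread widely from rat to rat in hippocampus, at 40.4 ± 15.2 CPM in ApoE4 doxorubicin, 37.8 ± 12.9 in ApoE4 PBS, 35.9 ± 18.0 in ApoE3 doxorubicin and 52.8 ± 11.7 in ApoE3 PBS rats. Its SD there reached 50.1% of the mean in ApoE3 doxorubicin rats, and its cortical levels were 70.6 ± 16.7 CPM in ApoE4 doxorubicin, 73.4 ± 15.1 in ApoE4 PBS, 72.6 ± 25.0 in ApoE3 doxorubicin and 68.8 ± 15.5 in ApoE3 PBS rats. Pcp4 in cortex was at 112 ± 21.7 CPM in ApoE4 doxorubicin, 101 ± 14.3 in ApoE4 PBS, 125 ± 35.5 in ApoE3 doxorubicin and 127 ± 13.1 in ApoE3 PBS rats, with the widest SD in ApoE3 doxorubicin rats.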

How the data were processed

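RNA was measured by sequencing in 64 libraries (NEBNext Ultra II RNA kit, per the labels' protocols). Per the submitters' processing notes, STAR 2.5.2b served the authors for alignment and DESeq2 for comparisons. The read counter, genome build and strandedness are not given in the sources used here, so reads of a gene and an antisense partner cannot be told apart. The deposited count tables hold unmodified read counts per gene. The authors' deposited comparison tables give a log2 fold change, p-values and a signal (counts divided by a size factor), of which the fold changes and p-values were printed. The members and lists were chosen with earlier results of these data known.

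Counts of gene rows, without the 92 spike-in rows (0.932 to 2.44% of counts), were fitted with edgeR 4.0.16 (R 4.3.3; filterByExpr, TMM factors 0.96 to 1.04, quasi-likelihood test, sex as covariate, Benjamini-Hochberg over all genes tested, threshold 0.05). Regional contrasts used all 64 libraries, regional interactions with treatment 32 of a genotype, genotype and sex 32 of a region, and doxorubicin and its sex term 16. Levels are TMM-scaled CPM, with a prior count of 1 on the log2 scale. The main edgeR fit was tested on simulated counts for the regional average and for doxorubicin in ApoE3 hippocampus. The other fits and the permutation test were not tested in this way. Depth and 8 libraries per group limit the precision.

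The same rat gave both regions, so rat numbers pair the samples by animal. Deviations from group means correlated over 13204 genes at a median of 0.22 (-0.105 to 0.396, over 0.1 in 27 of 32 rats). Compared with the other rats of their group, 16 of the 32 rats correlated best with their own number. Sex was not removed from these deviations. Alternatives were DESeq2 1.42.0, RLE scaling, no filter, no sex term, the rat block, one fit of all libraries, and, chosen after seeing the data, leaving out libraries with striatal markers above 1.5 times or choroid markers above 10 times the median. Labels do not say which libraries were handled together. Named genes were the 8 members, the 3 list genes with the smallest regional p that passed, those that passed elsewhere (given in part) and the 3 most similar genes. Some genes that this rule names are not reported here.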

Additional observations from a re-analysis of the deposited data

Results flagged for a closer look

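In the cortex of ApoE3 rats the doxorubicin difference was not the same in females and males for 4 genes, by edgeR's test of the sex by treatment term. This comparison was added after the values had been seen. The female minus male log2 difference was -0.83 for Pcp4, 1.27 for Tshz2, 0.51 for Lmo4 and -0.56 for Bcl11b. None of the 4 was called without the 3 males high in striatal markers, which leaves 1 doxorubicin male. The estimates were then -0.56 for Pcp4, 0.78 for Tshz2, 0.51 for Lmo4 and -0.33 for Bcl11b. Leaving these males out did not even out the striatal sums. Doxorubicin females were at 348 to 438 CPM, PBS females at 456 to 561 CPM and the doxorubicin male left (rat 52) at 477 CPM. The gene estimates, that of Lmo4 included, cannot be told apart from striatal content.

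Of 64 combinations of gene and group, 6 held a library far from the other 7 of its group, by a gap over range above 0.526; chance flags about 1 in 20 groups. Bcl11b had 29.7 CPM in the cortex of rat 1 (ApoE4 PBS), next to 39.1 CPM. Lmo4 had 62.3 CPM in the hippocampus of rat 7 (ApoE4 PBS), next to 72.8 CPM, and 153 CPM in the cortex of the same rat, next to 133 CPM. The hippocampal library of rat 7 also had the highest choroid plexus sum, 17100 CPM. Tshz2 had 75.9 CPM in the hippocampus of rat 66 (ApoE3 doxorubicin), next to 41.5 CPM. Cux2 had 48.9 CPM in the hippocampus of rat 31 (ApoE4 doxorubicin), next to 37.8 CPM. Pcp4 had 157 CPM in the cortex of rat 61 (ApoE3 PBS), next to 131 CPM.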

How the results depend on the processing

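The 8 genes kept their regional calls under every setting except Pcp4 in ApoE3 doxorubicin rats, given in the text. With the rat as replicate block, the regional test called 11386 genes and all 8 members, the regional difference by treatment in ApoE3 rats called 9 genes in place of 0, and no call among the 8 changed. No paired analysis was possible for doxorubicin, genotype or sex because those groups share no rat.

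By DESeq2, genes called were 102 (regional difference by genotype, with 1 member, Pcp4), 126 (by treatment in ApoE3), 1, 145, 37 and 77 (doxorubicin in ApoE4 and ApoE3 hippocampus and ApoE4 and ApoE3 cortex), 2 (genotype by treatment in hippocampus), 48 and 320 (sex in hippocampus and cortex, with 1 member, Pcp4, in cortex), and 1, 21 and 766 (sex by treatment in ApoE4 hippocampus, ApoE4 cortex and ApoE3 cortex). Without the filter on low counts they were 23 (regional difference by genotype), 40 (by treatment in ApoE3), 4 and 7 (doxorubicin in ApoE4 and ApoE3 cortex), 16 and 631 (sex by treatment in ApoE4 and ApoE3 cortex), and Pcp4 passed for sex in cortex and Rorb for sex by treatment in ApoE3 cortex, the 2 calls among the 8 that this setting gained. One fit of all 64 libraries called 56, 1 and 1 genes for doxorubicin (ApoE3 hippocampus, ApoE4 and ApoE3 cortex), 48 for genotype by treatment in hippocampus, and 1 member, Pcp4, for genotype in cortex. Without the sex term 1 member, Cux2, passed for genotype in cortex, and without genotype and treatment terms 24 genes passed for sex there.

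Without the cortical libraries high in striatal markers, genes called were 140 (regional difference by treatment in ApoE3), 11 (doxorubicin in ApoE3 cortex), 1 (genotype by treatment in cortex), 20 (sex in cortex), 0 and 4 (sex by treatment in ApoE4 and ApoE3 cortex, with 0 members), 1 member (Pcp4) passed for the regional difference by genotype, and 8 relations between genes passed. Without the hippocampal libraries high in choroid markers, 101 genes passed for the regional difference by treatment in ApoE3.

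Estimates that changed sign were uncalled. Without the libraries high in striatal markers they became 0.119 (C1ql2, doxorubicin, ApoE3 cortex), -0.0318 (C1ql2, genotype by treatment, cortex), -0.0215 for Lmo4 and -0.0242 for Tshz2 (sex, cortex), and -0.0366 and -0.0305 (Cux2, sex by treatment, ApoE3 and ApoE4 cortex). Without those high in choroid markers they became 0.0763 (Prox1, regional difference by genotype), -0.00175 (Tshz2, doxorubicin, ApoE4 hippocampus), -0.00599 (Lmo4, genotype by treatment, hippocampus), 0.131 (C1ql2, sex by treatment, ApoE4 hippocampus), and 0.00349, 0.000116 and -0.023 for C1ql2, Bcl11b and Pcp4 (sex, hippocampus). Without sex as a covariate one became 0.00268 (Bcl11b, doxorubicin, ApoE3 cortex), without genotype and treatment terms -0.00366 and 0.000917 (Prox1 and C1ql2, sex, hippocampus), and in the fit of all libraries 0.00148 (Prox1, doxorubicin, ApoE4 cortex). Without the filter they became -0.00113 (Prox1, sex, hippocampus) and -0.00255 (Cux2, sex by treatment, ApoE4 cortex), which was -0.000398 with RLE scaling and -0.000346 by DESeq2. The cause of these changes was not tested.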
